A study of Arabidopsis thaliana with 10 samples.

Results

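The 169 genomic sites described here were bound by both AGAMOUS-containing complexes of the study and were absent from its SEP3 peak lists. Each is a summit of SEP3-AG replicate 1 that had a summit within 200 bp in the other 4 AG-containing lists and none within 200 bp in any of the 4 SEP3 lists. They were 169 of the 8888 summits of that list, or 1.9%. Of these 8888 summits, 4234 (47.6%) had no SEP3 summit within 200 bp and 1825 (20.5%) had a summit in all of the AG-containing lists, so the member sites were 9.26% of the sites shared by both complexes. The peak lists themselves chose the members, so peak presence and peak height are given below as description, without a test.

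Both proteins of the study, SEPALLATA3 (SEP3) and AGAMOUS (AG), belong to the MADS-domain family of Arabidopsis thaliana. The study expressed them in vitro in a wheat germ extract. They were used to pull fragments out of naked, PCR amplified genomic DNA of 2-weeks old Col-0 seedlings, which were then sequenced. SEP3-AG (3 libraries) joined SEP3 with a 3FLAG tag to AG with a 5MyC tag and was purified through both tags in turn. SEP3∆tet-AG (2 libraries) held a SEP3 splice variant that forms few tetramers, with the same tags and purification. SEP3 alone (4 libraries) was purified through FLAG only, so the presence of AG and the second purification cannot be told apart in any comparison with SEP3. One input DNA library was the control of every list. No AG-only library was analysed here, and binding to naked DNA has no chromatin and no cell type.

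MADS-domain proteins bind DNA as dimers, and the classical target is the CArG box, written CC, then A or T throughout the core, then GG. The box is its own reverse complement, so each monomer reads 1 side of it. AG specifies stamens and carpels and ends the floral meristem, while the SEPALLATA proteins act as partners that bring the floral MADS-domain proteins into dimers and tetramers. A SEP3-AG tetramer can hold a pair of CArG boxes at once, whereas a dimer holds one.

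The SEP3 lists differed greatly in length, and this set the number of members. SEP3 replicates 1 to 3 held 473, 1225 and 1915 summits, and replicate 4 held 8916, with another prefix in its peak names than the other 8 libraries. Without SEP3 replicate 4 the same rule gave 700 sites, since 531 of the sites in all AG-containing lists had a summit in replicate 4 and in no other SEP3 list. The SEP3∆tet-AG lists held 3331 and 2329 summits, against 6643 to 9588 in the SEP3-AG lists, and the rule gave 350 sites without SEP3∆tet-AG replicate 2. How far list length follows from sequencing depth was not tested. The read totals and the shares of reads in peaks stated by the study were not used here.

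The sequences around the summits are shown first. In the tests on all libraries given below, no sequence feature separated the members from both sets of sites compared with them. Coordinates are those of the forward strand of the TAIR10 nuclear chromosomes, read from the RefSeq copy TAIR10.1. The first set holds the strongest sites and the gene of the auxin list with a long, symmetric match that is called an extended box below, TTNCCNNNNNNGGNAA, in which N is any base. The capitals mark its 16 bases, and the offset is that of its centre from the summit.
SLOMO, intron, chr4:16019594-16019623, offset 28.5 bp: tttttgtTTTCCTCAAACGGCAAataacag
AT5G65920, beyond the gene's end, chr5:26363649-26363678, offset 20.5 bp: aaattgtTTTCCAGATTTGGTAActgtgtt
AT5G55680, in the gene and upstream of AT5G55670, chr5:22547565-22547594, offset 13.5 bp: ttcttaaTTTCCATTTCTGGTAAtgtaaaa
IAA9, intron, chr5:26253873-26253902, offset -28.5 bp: tttgtttTTTCCGTTTGAGGTAAttatgtc
Each of these has both ends of the box and both flanks, and each has 1 or 2 G or C bases in the 6-base core, where the classical box has A or T only.

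The next set was chosen after the values were seen, as further examples of the same form near a flowering gene, in a coding exon and in a local repeat.
GI, upstream, chr1:8060439-8060468, offset -12.5 bp: ttaatgtTTTCCCTAATTGGTAAatcataa
BGLU27, coding exon, chr3:22208302-22208331, offset 4.5 bp: tttatgaTTACCGAAAACGGTAAtaatttt
NAC004, coding exon, chr1:436266-436295, offset 1.5 bp: tgaaaaaTTACCTGATTAGGAAAcaaggac
AT4G10530, first site, chr4:6506544-6506573, offset 0.5 bp: tcacatcTTTCCCAAAAGGGAAAtctatat
AT4G10530, second site, chr4:6507917-6507946, offset -13.5 bp: tcacatcTTTCCCAAAAGGGAAAtcaatat
The last pair lies upstream of a subtilase gene, with summits 1387 bp apart, the shortest distance between any 2 members. Their extended boxes are letter for letter the same, so these 2 sites share sequence and are not independent examples.

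Only 13 members had a CArG box without a mismatch within 50 bp of the summit, and 3 of them are shown with the box in capitals. None of the 12 strongest members and none of the listed genes had one, so these examples were also chosen after the values were seen, as those nearest the summit and 1 more.
NRT1.7, intron, chr1:26316481-26316510, offset 0.5 bp: ttgttaatttCCTTAATTGGatatatagtt
AT5G09880, coding exon, chr5:3082778-3082807, offset 0.5 bp: ctccagctttCCATTTAAGGcaatttgtgc
HSP70T-2, beyond the gene's end, chr2:13651164-13651193, offset 8.5 bp: tgagcaattcCCTTAAAAGGaaacaaaagt
For contrast, the strongest sites that were also in SEP3 lists and had an extended box are these.
AT1G61740, intron, chr1:22799840-22799869, offset 0.5 bp: atagtttTTTCCTTTTATGGTAAaaaaaat
AT1G19330, intron, chr1:6683037-6683066, offset 20.5 bp: aacatttTTACCAAAAAAGGAAAgaaatca
IMS2, beyond the gene's end, chr5:7722101-7722130, offset -20.5 bp: ggacatgTTACCCTAAACGGAAAagtattt
The first 2 have a core of A and T alone, as the classical box does, and the third does not.

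Member sites held fewer CArG boxes than the sites that both AG complexes shared with SEP3. The comparison set was the 1115 summits in all AG-containing lists with a summit in at least 2 SEP3 lists. A box without mismatch lay within 50 bp of 13 of 169 members (7.69%, 95% Wilson interval 4.55 to 12.7%) and of 203 of 1115 comparison sites (18.2%, 16.1 to 20.6%). The odds ratio was 0.375 (95% interval 0.191 to 0.677, two-sided Fisher's exact test on sites, Benjamini-Hochberg adjusted p = 0.00148 over 8 tests). A box with at most 1 mismatch lay at 80 members (47.3%) and at 751 comparison sites (67.4%), and the members' odds were 0.436 times those of the comparison sites (interval 0.310 to 0.612; adjusted p = 5.62e-06 by the same exact test). Over all 8888 summits these shares were 8.3% and 49.8%, so the members were close to the list as a whole. In windows of the same size 1000 bp to either side of the members the shares were 0.888% and 10.9%. Sites are positions in 1 genome and not replicates, and the intervals and p-values cover counting only.

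The difference remained when sites were grouped by fold enrichment in SEP3-AG replicate 1. Within 3 equal groups of fold enrichment in SEP3-AG replicate 1, the Mantel-Haenszel odds ratio was 0.400 for the box without mismatch and 0.509 for the box with at most 1 mismatch, and both stayed past the threshold. These groups were not balanced for fold enrichment in SEP3∆tet-AG, and heights can differ within a group. Whether peak height accounts for the difference was not tested. Without SEP3 replicate 4, a box without mismatch lay at 62 of 700 sites (8.86%) and at 141 of 633 comparison sites (22.3%), with an odds ratio of 0.339. The share of sites with a box without mismatch was 7.69% for sites in no SEP3 list, 9.43% in 1 list, 12.9% in 2 lists, 24.3% in 3 lists and 20.3% in all 4 lists.

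**Figure D1:**
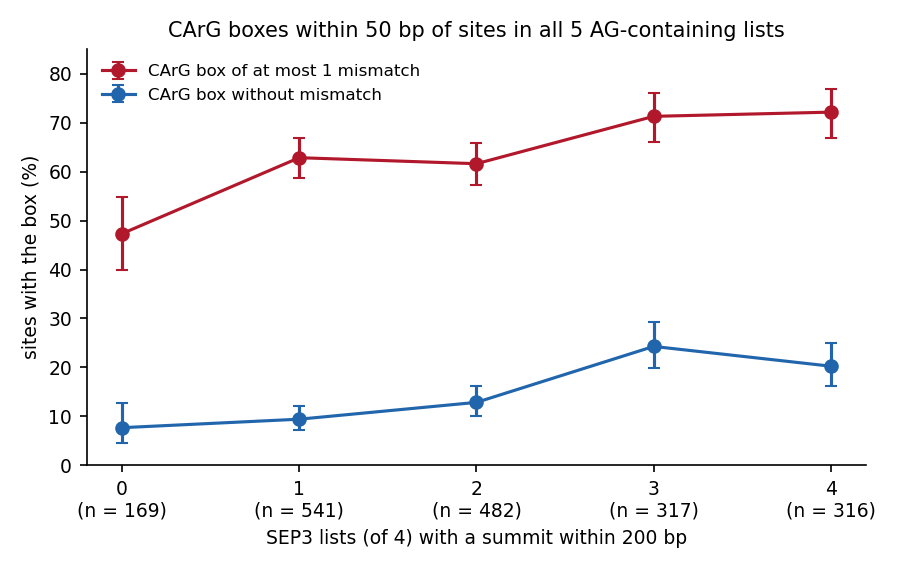
Share of sites with a CArG box within 50 bp of the summit (y axis, %), for the 1825 sites in all 5 AG-containing lists, by the number of SEP3 lists with a summit within 200 bp (x axis). Points are shares and bars 95% Wilson intervals. Both kinds of box were least frequent at the member sites (0 lists), at 7.69% and 47.3%.

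The sites bound by SEP3-AG alone gave another picture. These were 2328 summits in the 3 SEP3-AG lists with none in the SEP3∆tet-AG or SEP3 lists. A box without mismatch lay at 141 of them (6.06%), and the odds ratio of the members was 1.29 (0.656 to 2.35, Fisher's exact test on sites, adjusted p = 0.588). The test thus did not separate the members from these sites, and the interval includes differences in both directions.

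The bases outside the box differed between the members and the SEP3-AG-only sites. Among the members whose best box had at most 1 mismatch, 26 of 80 (32.5%) had TTN before the box and NAA after it, against 81 of 1039 (7.80%) of the SEP3-AG-only sites. The odds ratio was 5.68 (3.23 to 9.81, two-sided Fisher's exact test, adjusted p = 1.58e-08 over 8 composition tests). Among the sites also in SEP3 the share was 195 of 751 (26.0%), and the members did not differ past the threshold (odds ratio 1.37, 0.801 to 2.30, Fisher's exact test, adjusted p = 0.308). This second test passed without SEP3∆tet-AG replicate 2 (odds ratio 1.61, Fisher's exact test, adjusted p = 0.0199). Without SEP3 replicate 4 the first odds ratio was 4.84. The SEP3-AG-only sites were also lower peaks, with a median fold enrichment of 5.01 in SEP3-AG replicate 1 against 6.34 at members. The flanks of these 2 sets were not compared within groups of like fold enrichment.

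Within the core, fewer members than SEP3-AG-only sites had an A at the position next to the centre on both sides of the box, at 11 of 80 (13.8%) against 280 of 1039 (26.9%). The odds ratio was 0.432 (0.203 to 0.838, Fisher's exact test, adjusted p = 0.0321). This call did not hold in 12 of 18 alternatives, and without SEP3 replicate 4 the odds ratio was 0.923. The other 5 composition tests did not pass the threshold. One of them, an A as the first base of the core on both sides (28.8% of members' boxes against 41.4% of boxes at sites also in SEP3, odds ratio 0.571, Fisher's exact test, adjusted p = 0.0819), passed without SEP3 replicate 4 (odds ratio 0.464, adjusted p = 5.23e-07), without SEP3 replicate 3 (0.544) and without SEP3∆tet-AG replicate 2 (0.446). Another, an A as the second base of the core on both sides, stood at 26.2% of members' boxes against 16.5% at sites also in SEP3 (odds ratio 1.80, Fisher's exact test, adjusted p = 0.0849). It passed in 5 of 21 alternatives, with odds ratios of 1.86 without SEP3 replicate 4, 2.09 without SEP3 replicate 3 and 1.79 without SEP3∆tet-AG replicate 2. In the 67 members with exactly 1 mismatch, it fell in the core in 21 (31.3%), at the inner C or G in 20 (29.9%) and at the outer C or G in 26 (38.8%). Among the 548 such comparison sites, the core took 16.8% and the inner C or G 55.3%. These positions were counted without a test.

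The extended box was counted after these flanks had been seen, so its shares are a description with no test. The letters TTNCCNNNNNNGGNAA, which read the same on both strands, lay within 50 bp of 24 of 169 members (14.2%, 9.73 to 20.3%). They lay at 107 of 1115 sites also in SEP3 (9.60%), at 58 of 2328 SEP3-AG-only sites (2.49%) and at 324 of all 8888 summits (3.65%). In the side windows of the members the share was 0.296%. Any box without mismatch that has these flanks is also counted as an extended box.

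The cores of the members' extended boxes mostly held a G or C, and so did those at SEP3-AG-only sites. In 21 of the 24 members (87.5%, 69.0 to 95.7%) the core held at least 1 G or C, and in 3 it was A and T only. At the sites also in SEP3, 57 of 107 (53.3%, 43.9 to 62.4%) held a G or C in the core. At the 45 such sites in SEP3 replicate 4 alone the count was 34 (75.6%), and over the 700 sites obtained without replicate 4 it was 55 of 69 (79.7%). At the SEP3-AG-only sites it was 52 of 58 (89.7%), and over all 8888 summits 237 of 324 (73.1%). The 2 ends of the box without regard to the core, CCNNNNNNGG, were about as frequent at members (33.1%) as at sites also in SEP3 (30.9%). The members with an extended box had a median fold enrichment in SEP3-AG replicate 1 of 7.05, against 6.19 in the members without one.

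**Figure D2:**
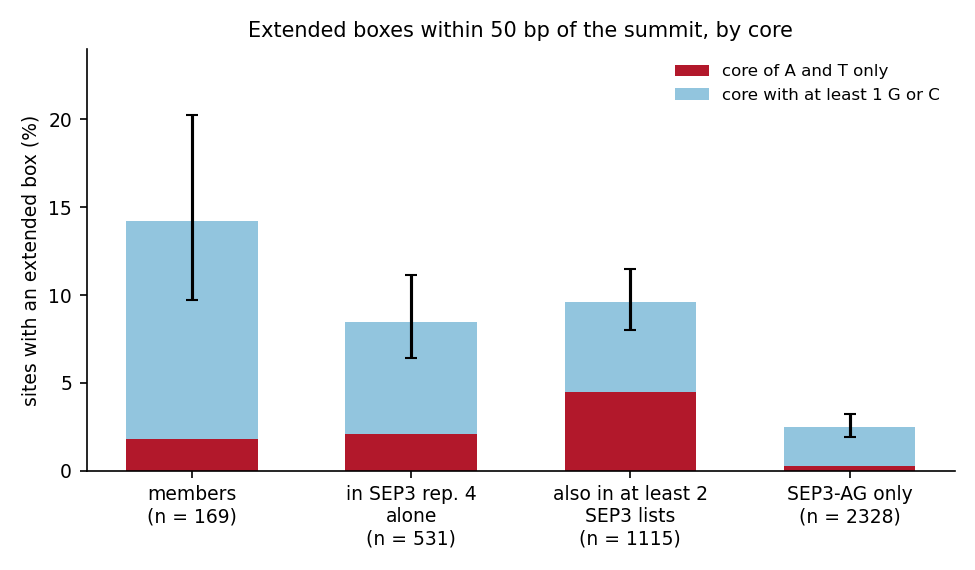
Share of sites with an extended box within 50 bp of the summit (y axis, %), split by whether the 6-base core held a G or C, in 4 sets of sites (x axis). Bars stack to the whole share and black bars are its 95% Wilson interval. The members had the extended box at 14.2% of sites, nearly all with a G or C in the core. The extended boxes of the SEP3-AG-only sites nearly all held one too.

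A single side of the box with its flank was far more common. The letters TTNCC or their reverse complement GGNAA lay at 154 of 169 members (91.1%), 81.7% of sites also in SEP3, 77.7% of SEP3-AG-only sites and 74.0% of all summits, against 43.8% of the members' side windows. Of the 89 members with no box of at most 1 mismatch, 77 held this word and 10 held the extended box. The letters GGGAAA or TTTCCC hold this word with a further G or C, which can be read as its N or as a base of the core. They lay at 44 members (26.0%), 9.60% of sites also in SEP3 and 12.9% of SEP3-AG-only sites. A further word, TTCAGGAA or its reverse complement TTCCTGAA, lay at 11 members (6.51%), 0.628% of sites also in SEP3 and 0.988% of SEP3-AG-only sites. In 8 of the 11 it runs on into AGGAAA or TTTCCT, and 2 of the 11 sites also held an extended box. These words were picked from the members' own sequences, so their excess there was fixed in part by the choice. A match is a string of letters and not a tested binding site.

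The boxes gathered near the summits, at members as at the other sites. The median distance of the best box from the summit was 15.5 bp at members and 12.5 bp at sites also in SEP3. Of the 80 members with a box, 58 had it within 25 bp, against 3083 of 4422 over all summits. Boxes for these values were searched only within 50 bp, which limits the distance. Counting boxes of at most 1 mismatch in 25 bp steps, members held 13.02 and 22.5 boxes per 100 sites just before and just after the summit, against 32.1 and 29.1 at sites also in SEP3. The median G and C content of the 101 bp around the summit was 29.7% at members and 27.7% at sites also in SEP3.

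**Figure D3:**
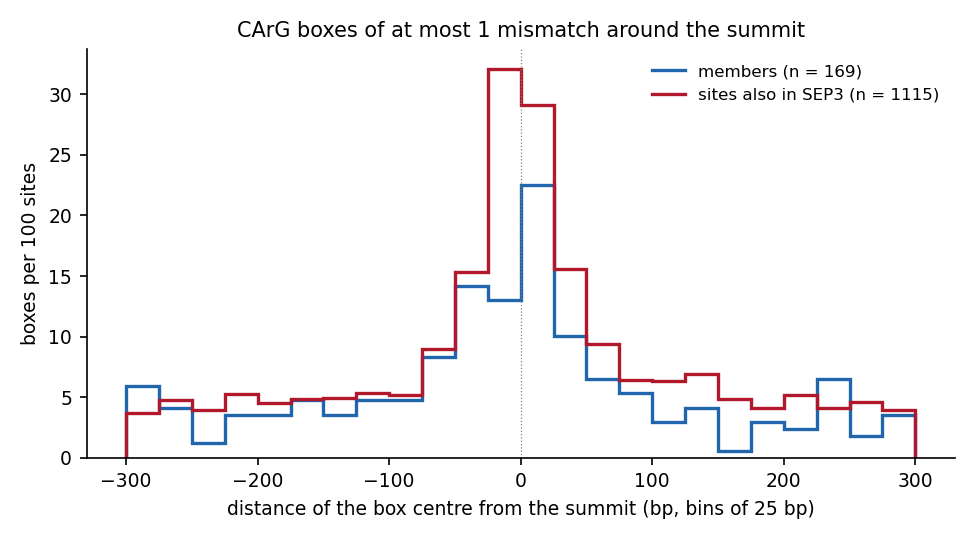
Boxes of at most 1 mismatch per 100 sites (y axis) by distance of the box centre from the summit (x axis, bp, in bins of 25 bp), for the 169 members and the 1115 sites also in SEP3. Both sets peak at the summit, the members at 22.5 and the others at 32.1 boxes per 100 sites.

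Few sites, among the members or over the whole list, held a pair of boxes of at most 1 mismatch at the spacings preferred in the study. The distances counted were taken from the study, which chose them on these same libraries, so they are not independent of the SEP3-AG sites. Distances between box centres of 36, 37, 46, 47, 56 and 57 bp were counted among sites with at least 2 boxes of at most 1 mismatch within 100 bp. The study located boxes with a scoring model and not by mismatches, so pairs it would count can be missing here. At least 2 such boxes lay at 30 members (17.8%) and at 19.6% of all summits, and 3 of the 30 members had a pair at such a distance. These 3 sites lay in the UTR of AT1G05030, in an intron of AT1G33100 and in the promoter of ASHH4. The Wilson interval of the members' share was 3.46 to 25.6%, and over all summits the share was 262 of 1741 (15.0%). It was 49 of 363 (13.5%) at sites also in SEP3 and 82 of 369 (22.2%) at SEP3-AG-only sites. The members differed from neither of these comparison sets past the threshold by Fisher's exact test (odds ratios 0.713 and 0.390, intervals 0.133 to 2.45 and 0.0738 to 1.32, adjusted p = 0.799 and 0.433).

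Peak heights of the members varied over a wide range with SEP3-AG and a narrow one with SEP3∆tet-AG. Fold enrichment here is the ratio at the summit over the background derived from the input DNA. In SEP3-AG replicate 1 it ran from 2.65 over a median of 6.34 to 14.6. In replicate 2 it ran from 2.21 over 5.51 to 14.3, and in replicate 3 from 2.82 over 7.63 to 15.7. In SEP3∆tet-AG replicate 1 it ran from 2.28 over 3.81 to 7.20, and in replicate 2 from 2.42 over 3.47 to 5.48. The medians of the SEP3∆tet-AG libraries were thus below those of every SEP3-AG library, while the ranges overlapped. Both SEP3∆tet-AG medians lay near the middle of their own lists, at the top 48.3% and 55.9% of summits, whereas in SEP3-AG they lay at the top 32.03, 38.7 and 26.9%.

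The sites also in SEP3 were taller in each AG-containing library, with medians of 9.35, 8.04 and 10.4 in SEP3-AG replicates 1 to 3 and of 5.32 and 4.18 in SEP3∆tet-AG. The rule asks for absence from the SEP3 lists, and the medians fell in each of the 3 SEP3-AG libraries with each SEP3 list fewer, from 10.8 in replicate 1 for sites in all 4 SEP3 lists to 6.34 for the members. The lowest −log10 q of any member was 8.10, in SEP3-AG replicate 2.

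The order of the members differed between the complexes. Across the 169 members, which share a genome and an input control, the rank correlation (Spearman's rho) of fold enrichment was 0.924 to 0.964 between SEP3-AG libraries and 0.669 between the SEP3∆tet-AG libraries. Between the complexes it was -0.04 to 0.133. At the sites also in SEP3 the values between the complexes were 0.541 to 0.584, and at the sites in SEP3 replicate 4 alone they were 0.344 to 0.395. The ratio of mean SEP3-AG to mean SEP3∆tet-AG fold enrichment had a median of 1.67 at members and ran from 0.661 to 4.67. It was below 1 at 10 members and above 3 at 27. These values are descriptions, since the rule itself limits both measures.

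**Figure D4:**
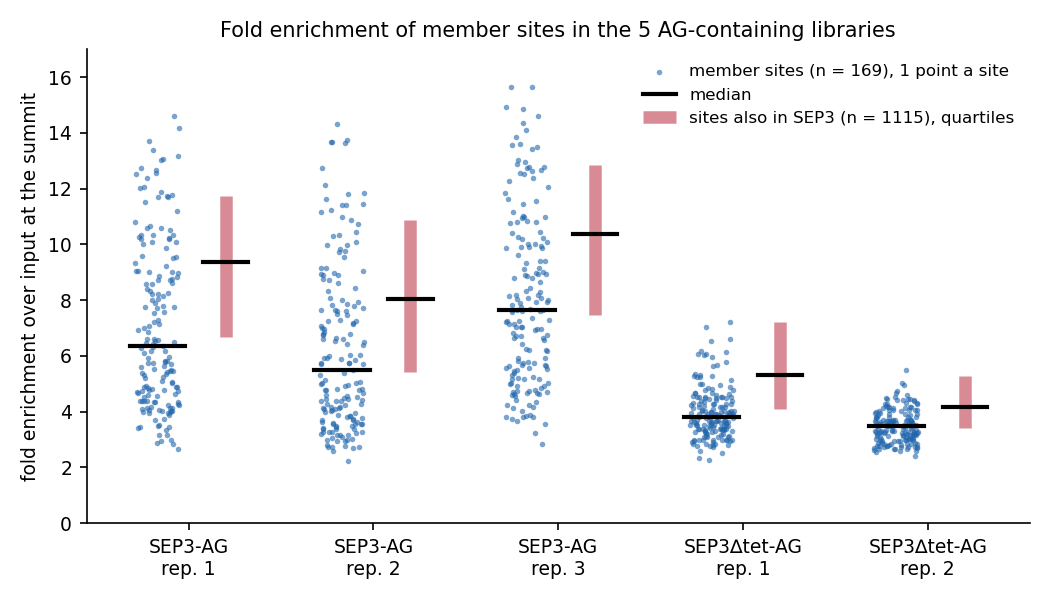
Fold enrichment over input at the summit (y axis) in the 5 AG-containing libraries (x axis). Each blue point is 1 of the 169 member sites, black lines are medians, and red bars are the quartiles of the 1115 sites also in SEP3. Members reached 14.6 in SEP3-AG replicate 1 and only 7.20 in SEP3∆tet-AG replicate 1.

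Median peak height of the members rose with the box in SEP3-AG replicate 1 and not in SEP3∆tet-AG replicate 1, as a description over few sites. The rule limits both measures. In SEP3∆tet-AG replicate 1 the quartiles of the members were only 3.35 and 4.48, which leaves little range to follow the box. The other libraries are not given by box. In SEP3-AG replicate 1 the median fold enrichment of the 13 members with a box without mismatch was 10.09, against 7.01 for the 67 with 1 mismatch and 5.83 for the 89 without a box. Those 13 values ran from 3.98 to 14.2, and several lay below the median of the members without a box. In SEP3∆tet-AG replicate 1 the medians of the same groups were 3.67, 3.81 and 3.90. AT4G11350, annotated as a glycosyl transferase, had 14.2, 13.7 and 14.4 in SEP3-AG and 3.67 and 3.71 in SEP3∆tet-AG. NRT1.7, a nitrate transporter, had 3.98, 3.94 and 4.77 in SEP3-AG and 5.12 and 3.67 in SEP3∆tet-AG, although its box lies at the summit. The 2 sites thus had like values in SEP3∆tet-AG replicate 2 and values far apart in all 3 SEP3-AG libraries. Both were chosen after their values were seen.

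The summits of the 5 lists coincided closely. The nearest summit lay a median of 8 bp away in SEP3-AG replicates 2 and 3 and 13 and 14 bp away in the SEP3∆tet-AG replicates, and in 159 members all of them lay within 50 bp. Few members were near misses of the SEP3 lists, since the nearest SEP3 summit lay beyond 1000 bp for 146 of 169 and beyond 200 and up to 500 bp for 10. One member summit lay inside a SEP3 peak region. Just inside the SEP3 limit were a site near AT2G07140, with a SEP3 summit 210 bp away and a fold enrichment of 11.7 in SEP3-AG replicate 1, and one near AT5G23550 at 270 bp with 10.08. Just outside were AT1G10750 at 189 bp with 10.8 and DEG3 at 176 bp with 4.43. For the limit on the AG-containing lists, AT4G33130 at 196 bp (5.83) and PTR3 at 82 bp (4.40) were just inside, and SAP10 at 210 bp (2.57) and ELF5A-1 at 228 bp (7.82) just outside.

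Member sites lay in and around genes on every chromosome, with 41, 22, 31, 29 and 46 on chromosomes 1 to 5 (1.497 to 2.25% of the summits of SEP3-AG replicate 1). A promoter was the 1000 bp before the start of a protein-coding gene and took precedence over other classes. By that order 57 members (33.7%) lay in promoters, 31 (18.3%) in introns, 20 (11.8%) in coding exons, 17 (10.06%) in UTRs, 13 (7.69%) within 1000 bp beyond a gene's end, 5 in other genes and 26 (15.4%) between genes. Promoters make up 21.3% of the genome's bases under these classes, and 37.1% of all summits lay in them.

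The promoter share did not separate the members from either comparison set. It was 37.1% at sites also in SEP3 (odds ratio 0.862, 0.601 to 1.23, Fisher's exact test, adjusted p = 0.588) and 32.7% at SEP3-AG-only sites (odds ratio 1.05, 0.738 to 1.47, Fisher's exact test, adjusted p = 0.799). Introns held 15.96% of the sites also in SEP3 (odds ratio 1.18, 0.749 to 1.82, Fisher's exact test, adjusted p = 0.588). Coding exons, which were not among the tested classes, held 11.8% of the members (7.79 to 17.6%) and 3.86% of the sites also in SEP3 (2.88 to 5.15%). At the sites in SEP3 replicate 4 alone the share was 2.64%, and at SEP3-AG-only sites 7.60%. Over all 8888 summits it was 4.44%, and coding exons make up 24.9% of the genome's bases. The higher share at members was noticed in the data and is given without a test.

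**Figure D5:**
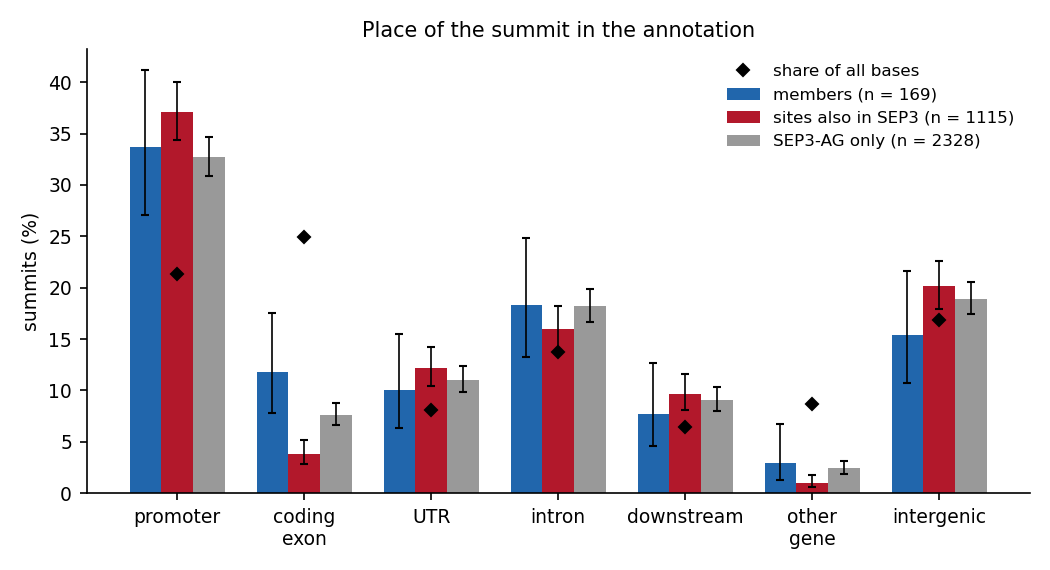
Share of summits in each class of the annotation (y axis, %) for the 169 members, the 1115 sites also in SEP3 and the 2328 SEP3-AG-only sites, with 95% Wilson intervals. Diamonds mark the share of all bases of the genome in each class. Coding exons hold 11.8% of the members and 3.86% of the sites also in SEP3.

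The 20 coding-exon members covered genes of many kinds. Among them were the genes of the NAC-domain transcription factors NAC004 and NAC075, of TCP12, a TCP transcription factor that restrains axillary buds, of CSI1, which ties cellulose synthase to microtubules, and of SECA2, a part of the preprotein export machinery of the plastid. The site in NAC075 had fold enrichments of 10.09, 10.07 and 13.01 in SEP3-AG replicates 1 to 3 and of 4.18 and 3.04 in SEP3∆tet-AG, and its box without mismatch lay 29.5 bp from the summit. The site in TCP12 had no box of at most 1 mismatch, with 5.25, 4.81 and 7.59 in SEP3-AG and 4.499 and 3.93 in SEP3∆tet-AG. These genes were chosen after their values were seen.

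The 12 strongest members, by the lowest fold enrichment over the 5 lists, were led by a coding exon of A/N-InvC, a neutral invertase that splits sucrose. Its site (chromosome 3, summit 2012779) had 7.77, 8.45 and 11.6 in SEP3-AG and 5.95 and 5.02 in SEP3∆tet-AG, and its best box had 1 mismatch. The intron site of SLOMO, an F-box gene known for leaf initiation at the shoot apex, had 7.89, 6.80 and 8.93 in SEP3-AG and 6.07 and 4.97 in SEP3∆tet-AG. It had no box of at most 1 mismatch, and the extended box printed above is its match. The site between AT5G65920 and AT5G65910, in the promoter of the latter, had 10.3, 10.4 and 11.6 in SEP3-AG and 6.54 and 4.75 in SEP3∆tet-AG.

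COL9, a CONSTANS-like gene that delays flowering, held an intron site (chromosome 3, summit 2442318) with 6.34, 6.04 and 8.81 in SEP3-AG and 4.51 and 4.45 in SEP3∆tet-AG. GRF2, a growth-regulating factor of leaf size, held a site 218 bp before its start with 5.80, 5.74 and 6.97 in SEP3-AG and 4.27 and 4.30 in SEP3∆tet-AG. Neither site had a box of at most 1 mismatch or an extended box. The promoter site of HSD3, a hydroxysteroid dehydrogenase gene, lay 37 bp before the start, with 10.2, 7.07 and 10.03 in SEP3-AG and 6.18 and 4.15 in SEP3∆tet-AG, and had no such box either. The other 6 of the 12 lay nearest to AT5G13810, AT5G55680, AT4G04265, AT5G35230, AT3G44100 and AT5G37070. Of these 6, 4 were intergenic, at 2690 to 26211 bp from the named gene. Of the 12, 6 had a best box of 1 mismatch and 3 had the extended box.

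A few of the genes listed for their part in flower, hormone and growth control had a member site nearby. A gene region ran from 3000 bp before the start to 1000 bp beyond the end, and 253 of 27444 protein-coding genes (0.922%) held a member site in theirs. Of the 169 members, 71 lay in the region of 1 gene, 80 in those of 2 or more and 18 in none. Of the 253 genes, 20 also held a site that was in SEP3 lists. In 10 lists of flower, hormone and growth genes, 5 of 250 matched genes (2%) held a member site. In the same lists 40 genes (16%) held a site also in SEP3, against 6.09% of all protein-coding genes, and 147 (58.8%) held any summit of SEP3-AG replicate 1, against 38.3%. The listed genes thus stood above the share over all genes for each kind of site, and nothing particular to the members follows from their count.

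By list, 1 of 45 MIKC MADS-box genes, 1 of 25 carpel and fruit genes, 2 of 12 AP2 and TOE-type genes and 1 of 63 auxin genes held a member site. None of the floral meristem and flowering-time (20), stamen and anther (17), organ boundary (11), polarity (11), gibberellin (24) or TCP and SPL (23) genes did. At a background of 0.922%, counts of 0 or 1 in lists of this size say little about any list.

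The auxin gene was IAA9, whose product represses auxin response. Its intron site, 508 bp beyond the start (chromosome 5, summit 26253916), was the tallest of the 5, with 13.7, 13.7 and 14.6 in SEP3-AG and 4.66 and 4.01 in SEP3∆tet-AG. It had no CArG box of at most 1 mismatch and held the extended box printed above. The fruit gene was IND, a bHLH gene of the valve margin along which the fruit opens. Its site lay 32 bp before the annotated start, with 6.59, 5.73 and 8.34 in SEP3-AG and 3.96 and 3.68 in SEP3∆tet-AG.

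SOC1 (AGL20 in the annotation), a MADS-box gene that promotes flowering, had a member site 1997 bp before its start, nearer to the neighbouring AT2G45670. The site had 9.35, 8.32 and 10.8 in SEP3-AG and 4.0 and 3.22 in SEP3∆tet-AG. TOE1 (RAP2.7 in the annotation), an AP2-type repressor of flowering, had one 2800 bp before its start, with 4.03, 2.79 and 3.79 in SEP3-AG and 2.85 and 3.00 in SEP3∆tet-AG. AIL7, an AINTEGUMENTA-like gene of the shoot apex, had one 2015 bp before its start, inside an intron of AT5G65500, with 3.49, 3.27 and 4.61 in SEP3-AG and 3.17 and 3.79 in SEP3∆tet-AG. IND, SOC1, TOE1 and AIL7 had no box of at most 1 mismatch and no extended box at these sites. SOC1, TOE1 and AIL7 each also held another site that was in SEP3 lists, while IND and IAA9 did not.

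Other regulators outside the lists had members close by, and these were chosen after their values were seen. GI, a clock gene that promotes flowering in long days, had a site 1285 bp before its start with 7.08, 6.03 and 8.86 in SEP3-AG and 3.49 and 2.74 in SEP3∆tet-AG, over the extended box printed above. MEA, a Polycomb gene imprinted in the endosperm, had one 99 bp before its start with 8.83, 7.15 and 8.09 in SEP3-AG and 4.03 and 3.15 in SEP3∆tet-AG. AGL97, a type I MADS-box gene, had one 230 bp before its start with 8.97, 7.79 and 9.94 in SEP3-AG and 3.90 and 4.06 in SEP3∆tet-AG. CPC and SMB, regulators of root epidermis and root cap, had sites 539 and 910 bp before their starts, with 5.65 and 4.79 in SEP3-AG replicate 1. Of the 253 genes, 27 (10.7%) had a product name with a transcription factor or DNA-binding family word, against 7.49% of genes with a site also in SEP3, 6.65% of genes with any summit and 5.67% of all genes. The words included zinc finger, which also matched RING-type proteins such as those of AT1G71980 and AT2G01810, so these are shares of names only.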

How the data were processed

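The 9 purified libraries each had a deposited peak list, and the input DNA was the control of all. After trimming, the authors mapped reads to the nuclear genome (TAIR10) using bowtie2, discarded those placed more than once and duplicates, and called peaks with MACS2 (version not given in the sources used here, q threshold 0.0001) in each library against the input, with several summits allowed per region. Per the submitters' processing notes, reads were converted with bcl2fastq 2.17. The deposited lists gave the summit position, the fold enrichment, a ratio to the input-derived background, and −log10 of the p-value and q-value. They hold no read totals, and those stated by the study were not used here.

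Summits were matched within 200 bp in Python 3.11.15 (pandas 2.3.3, NumPy 2.4.6), and shares were compared by two-sided Fisher's exact tests with Wilson intervals of 95% in SciPy 1.17.1, adjusted by Benjamini-Hochberg over 8 site-feature tests and over 8 composition tests, with a threshold of 0.05. Chromosome lengths of the RefSeq TAIR10.1 copy held every peak. Boxes were searched within 50 bp and pairs within 100 bp of the summit, and the procedure was tested on simulated sites. The members and gene lists were chosen with earlier results of these data known. Named were the 12 members with the highest lowest fold, every listed gene with a member site and the sites next to the 200 bp limits, and the sequences of up to 6 of these with a box without mismatch (there were 0). Gene names were matched by symbol, unique synonym or, where genes share a symbol, full name, for 251 of 252 listed symbols, which name 250 genes. The replicates are separate libraries, and nothing used here says that they came from separate protein batches.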

Additional observations from a re-analysis of the deposited data

Results flagged for a closer look

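The list of SEP3 replicate 4 held 8916 summits, far from the 473, 1225 and 1915 of the other SEP3 libraries. Its gap to the nearest list was 0.8292 of the range of the 4 lists, just above the limit for 4 samples, and about 1 in 20 groups would pass this limit by chance. Its median fold enrichment of 3.39 lay among those of the other 3 lists, at 3.24 to 3.64. Absence from this list decided the fate of most candidate sites, since 531 of the 700 sites found in no other SEP3 list had a summit in it. Its part in the results was not tested beyond the values given with and without it.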

How the results depend on the processing

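The lower share of CArG boxes at members than at sites also in SEP3 kept its direction and its side of the threshold under all 21 alternatives, with odds ratios of 0.292 to 0.460 for the box without mismatch (adjusted p up to 0.0235) and of 0.347 to 0.568 for the box with at most 1 mismatch. The flanks against SEP3-AG-only sites did so under all 18, at 3.78 to 6.37. Leaving out 1 library at a time gave 169 to 700 member sites and 253 to 1050 genes, the highest of both without SEP3 replicate 4 and 350 sites with 524 genes without SEP3∆tet-AG replicate 2. A gene region of 1000 bp upstream only gave 141 genes. Some tests that missed the threshold passed it under an alternative: against sites also in SEP3, an A as the first core base did so in 3 of 21, an A as the second in 5 and the flanks in 1. Others changed direction under the alternatives named next, without passing the threshold there. The promoter odds ratio against SEP3-AG-only sites was 0.990 with replicate 3 as anchor, 0.929 with a promoter of 500 bp, 0.962 with 2000 bp and 0.982 to 1.13 with 1 library left out. Leaving out 1 library gave 0.753 to 1.12 for promoters, 0.813 to 1.36 for introns and 0.627 to 1.21 for box pairs against sites also in SEP3, and box pairs gave 1.29 within 3 equal groups of fold enrichment. With 1 library left out, an A next to the centre against sites also in SEP3 ranged from 0.586 to 1.24 (1.06 with a window of 100 bp), and an A as the first core base against SEP3-AG-only sites from 0.797 to 1.17. No paired analysis was possible because the results are counts of sites over all lists and come from no test across samples. The limits are those of peak lists: a site counted as missing from a list had no called summit in it within the 200 bp limit. A member summit that lay inside a SEP3 peak region was counted as missing too. Missing from a list is not a measured absence of binding. Whether sites with low fold enrichment go missing first was not tested. The cause of each change was not tested.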
